A study of Mus musculus with 13 samples.

Results

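The gene bodies of the lowest expression class in mouse neural stem and progenitor cells were examined for acetylated lysine 14 of histone H3 (H3K14ac) and for KAT7, the acetyltransferase also called HBO1 that places this mark. The authors' deposited region table gives each gene body (the gene from its start to its end) an expression class of Bottom, Other or Top. The members described here are the autosomal gene bodies classed Bottom that share no base with another gene body. They number 885 of the 15929 autosomal gene bodies that share no base with another, against 14245 Other and 799 Top. The table holds 20689 gene bodies in all, of which 1035 are classed Bottom. Of these, 45 lie on X or Y and 105 overlap another gene body, and both were set aside.

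The cells were neurospheres, floating colonies grown from the cortex and ganglionic eminences of embryos at E14.5 and taken at passage 5, day 3. All of them carried a Cre transgene (NesCreT/+) driven by nestin sequence. The Kat7lox/lox NesCreT/+ cells have Kat7 deleted and the Kat7+/+ NesCreT/+ cells have it intact. Chromatin immunoprecipitation with sequencing (ChIP-seq) gave 13 libraries: H3K14ac from 4 intact and 3 deleted isolates, KAT7 from 3 intact isolates and 1 deleted isolate, and IgG, a control antibody, once for each experiment. The values used were 1 merged column per antibody. Which libraries and which genotype entered each merged column is not given in the sources used here, and neither IgG nor the genotypes could be compared. Values are RPKM, reads per kilobase of region scaled to the reads of the column (141734087 for H3K14ac and 134111848 for KAT7). With no replicates, each value carries an exact 95% interval for counting error alone and none carries a p-value.

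How the authors measured expression is not given in the sources used here, so the classes were read against marker genes. Of 18 markers of neural stem cells and radial glia, 6 were classed Top (Fabp7, Nes, Olig2, Slc1a3, Sox2 and Vim), 12 Other and 0 Bottom. Markers of other cell types that were members numbered 10: Stmn2 (neurons), Mag (oligodendrocytes), Tmem119 (microglia), Cdh5, Cldn5 and Pdgfrb (vessels), Dazl (germ cells), Afp (fetal liver), Krt14 (skin) and Myh1 (muscle). Most markers of these cell types were instead classed Other: 10 of 12 for neurons, 7 of 8 for oligodendrocytes and 7 of 8 for microglia and blood. So were 6 of 6 for astrocytes, 4 of 7 for vessels, 5 of 6 for germ cells and 5 of 8 for liver, muscle and skin. The neuron marker Map2 was Top. The Bottom class thus took in only a part of these markers.

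Acetylation of histone tails opens chromatin, and H3K14ac is found at the starts and along the bodies of active genes. KAT7 works in complexes with scaffold subunits that read other histone marks. CpG islands are stretches rich in the dinucleotide CG that cover the start sites of most widely expressed genes and of many developmental regulators. Genes used in a single tissue, such as those for chemosensory receptors, keratins and liver enzymes, mostly lack one. Silent developmental regulators with a CpG island are commonly held by Polycomb complexes.

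The promoters below show the range of start sites among the members. Each runs from 250 bases before to 50 bases after the RefSeq start site, 5′ to 3′ on the gene's strand, from RefSeq on GRCm38.p6, with every CG dinucleotide in capitals. Htr1f, a serotonin receptor (chr16:65105735-65106034, minus strand), and Eps8l2, an actin-regulating protein of stereocilia (chr7:141338752-141339051, plus strand), led the members in H3K14ac and in KAT7 at a CpG region over the start. Vmn2r114, a pheromone receptor (chr17:23312264-23312563, minus strand), and Clec2e, a C-type lectin (chr6:129100854-129101153, minus strand), had the highest KAT7 level of their families among members with a promoter in the reference. Foxl2, a forkhead factor of the ovary (chr9:98955357-98955656, plus strand), and Krt42, a type I keratin (chr11:100269902-100270201, minus strand, 80 bases from the start site in the deposited table), had a high and a low ratio of KAT7 to H3K14ac, and were chosen after the values were seen.
Htr1f: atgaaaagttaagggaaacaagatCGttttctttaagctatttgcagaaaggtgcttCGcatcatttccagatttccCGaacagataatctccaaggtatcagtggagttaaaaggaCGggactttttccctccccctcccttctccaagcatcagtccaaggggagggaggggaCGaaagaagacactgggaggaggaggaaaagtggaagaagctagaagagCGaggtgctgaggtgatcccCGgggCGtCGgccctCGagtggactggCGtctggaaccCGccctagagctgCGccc
Eps8l2: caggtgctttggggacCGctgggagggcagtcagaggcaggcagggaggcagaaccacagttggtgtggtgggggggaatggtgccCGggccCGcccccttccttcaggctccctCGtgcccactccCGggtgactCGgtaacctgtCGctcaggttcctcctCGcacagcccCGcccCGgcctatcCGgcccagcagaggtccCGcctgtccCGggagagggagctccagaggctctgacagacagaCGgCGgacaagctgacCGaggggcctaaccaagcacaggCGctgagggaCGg
Vmn2r114: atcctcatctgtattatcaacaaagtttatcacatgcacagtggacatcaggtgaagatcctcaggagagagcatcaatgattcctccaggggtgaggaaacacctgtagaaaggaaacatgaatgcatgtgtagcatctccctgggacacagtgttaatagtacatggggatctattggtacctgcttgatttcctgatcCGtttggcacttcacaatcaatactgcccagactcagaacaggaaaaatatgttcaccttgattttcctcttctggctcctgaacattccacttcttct
Clec2e: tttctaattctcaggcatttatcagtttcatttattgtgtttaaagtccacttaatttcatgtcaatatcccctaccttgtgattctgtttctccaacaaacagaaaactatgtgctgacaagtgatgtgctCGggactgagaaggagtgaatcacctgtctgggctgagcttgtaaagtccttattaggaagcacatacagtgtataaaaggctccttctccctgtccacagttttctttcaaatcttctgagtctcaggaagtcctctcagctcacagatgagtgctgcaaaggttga
Foxl2: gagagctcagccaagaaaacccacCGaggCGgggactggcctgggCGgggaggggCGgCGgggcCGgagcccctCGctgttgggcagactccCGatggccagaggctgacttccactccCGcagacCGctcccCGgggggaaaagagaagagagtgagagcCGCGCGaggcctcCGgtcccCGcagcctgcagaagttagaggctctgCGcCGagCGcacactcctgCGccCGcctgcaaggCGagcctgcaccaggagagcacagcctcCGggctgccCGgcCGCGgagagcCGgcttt
Krt42: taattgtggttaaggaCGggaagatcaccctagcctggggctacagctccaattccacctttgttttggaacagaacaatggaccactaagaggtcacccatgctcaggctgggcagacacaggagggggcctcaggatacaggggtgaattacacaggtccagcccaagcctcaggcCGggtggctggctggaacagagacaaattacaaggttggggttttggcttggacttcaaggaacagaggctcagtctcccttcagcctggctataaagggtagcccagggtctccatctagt
These sequences hold 13 CG in Htr1f, 18 in Eps8l2, 1 in Vmn2r114, 1 in Clec2e, 27 in Foxl2 and 2 in Krt42, against a median of 7 over the 27025 mouse promoters of the same length in the reference. Promoters could be matched for 579 members (65.4%), too few to describe the members as a set. They could be described for 3 families with enough matches. In 33 of 36 vomeronasal receptors the promoters held a median of 2 CG (0 to 4), and in 20 of 23 lectin and killer receptors also 2 (1 to 6). In 15 of 16 other G protein-coupled receptors the median was 7 (0 to 16). The letters GGGCGG, searched on both strands, occurred in 0% of the vomeronasal and 0% of the lectin and killer receptor promoters, in 40% of the other G protein-coupled receptor promoters and in 35.6% of all promoters. The letters TATAAA, searched the same way, occurred in 24.2%, 25% and 6.67% of these families and in 14.1% of all promoters. These counts take any position. From 40 to 16 bases before the start, on the gene's strand, the letters occurred in 0 of 33, 1 of 20 and 0 of 15 of these promoters.

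Over the gene bodies, the members had about the same H3K14ac read level as the most highly expressed genes and a lower KAT7 read level. Without an IgG comparison, how much of these levels is background reads was not tested. The members' summed H3K14ac level was 0.383 RPKM (95% interval 0.382 to 0.383), with a median of 0.387 RPKM and quartiles of 0.364 and 0.408. The Other class had a median H3K14ac level of 0.380 RPKM and the Top class one of 0.388 RPKM. The summed level of the Top class was 1.04 times that of the members (1.03 to 1.04), and the ratio of the medians was 1.00. For KAT7 the members' summed level was 0.376 RPKM (0.376 to 0.377), with a median of 0.377 RPKM and quartiles of 0.354 and 0.398. The median KAT7 level was 0.398 RPKM in the Other class and 0.436 RPKM in the Top class, and the Top sum was 1.16 times that of the members (1.16 to 1.16). The upper quartile of the members in KAT7 thus lay below the lower quartile of the Top class, 0.415 RPKM, whereas the quartile ranges for H3K14ac overlapped.

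**Figure D1:**
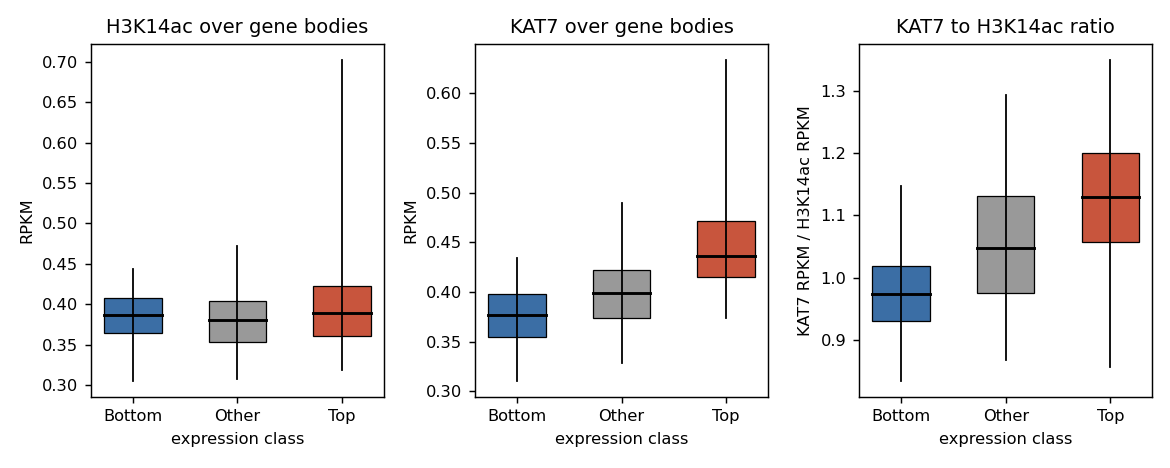
RPKM of H3K14ac and KAT7 over gene bodies, and the KAT7 to H3K14ac ratio, by expression class (885 Bottom, 14245 Other and 799 Top gene bodies). Boxes span the quartiles, the thick line is the median, and whiskers run from the 5th to the 95th percentile of gene bodies; axes do not start at 0. The median ratio goes from 0.974 in the Bottom class to 1.05 in Other and 1.13 in Top, while the H3K14ac medians lie between 0.380 and 0.388 RPKM.

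The ratio of KAT7 to H3K14ac in each gene body was lower in the members than in the other classes. Each RPKM is scaled to its own column, so a ratio of 1 means equal RPKM and not equal amounts of enzyme and mark. The median ratio was 0.974 over the 877 members with a ratio (quartiles 0.930 and 1.02), 1.05 in the Other class and 1.13 in the Top class. The counting interval of the ratio lay above 1 in 59 members and below 1 in 181. Over all gene bodies of the comparison it lay above 1 in 33.9% and below 1 in 8.98%. Against the median of all gene bodies, 1.05, the interval lay below in 404 members (45.6%), where 21% of all gene bodies did. It lay above in 26 members (2.94%), where 19% of all gene bodies did.

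Gene length moved with these differences. The members ranged from 1326 to 937070 bases (median 17760), and none was of 1000 bases or less, whereas 702 Other and 74 Top gene bodies were. From above 1000 to 3000 bases the Top class stood above the members by 1.30-fold in H3K14ac (1.26 to 1.34) and 1.43-fold in KAT7 (1.39 to 1.48). From above 10000 to 30000 bases the factors were 1.02 for H3K14ac (1.02 to 1.03), with a ratio of medians of 0.952, and 1.21 for KAT7 (1.208 to 1.221). From above 30000 to 100000 bases they were 0.996 (0.992 to 1.00) and 1.13 (1.12 to 1.13). In summed level, KAT7 was therefore higher in the Top class in each of the 5 length bands that hold members. The H3K14ac sum was also higher, by smaller factors, in all of these bands but that from above 30000 to 100000 bases. By medians, Top H3K14ac lay below the members from above 10000 to 30000 bases (0.952) and from above 30000 to 100000 bases (0.982). It lay above them in the other bands. The KAT7 ratios of medians ran from 1.10 to 1.33 over the bands. From above 3000 to 10000 bases the factors were 1.07 for H3K14ac (1.06 to 1.08) and 1.26 for KAT7. Above 100000 bases they were 1.06 (1.06 to 1.07) and 1.12.

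**Figure D2:**
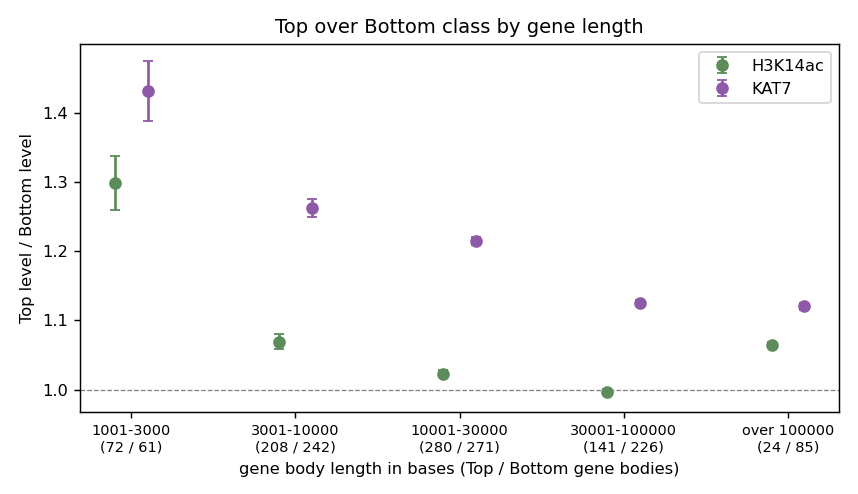
Summed level of Top gene bodies divided by that of Bottom gene bodies, by length, for H3K14ac and KAT7, with exact 95% counting intervals; numbers in parentheses are Top and Bottom gene bodies. The KAT7 points go from 1.43 in the shortest band to 1.12 in the longest, and the H3K14ac points from 1.30 to 0.996 and 1.06; the axis does not start at 0.

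The members hold genes of many single tissues. Of 27 families defined by symbol, 20 had a member and 13 had 10 or more. RefSeq gives 724 members as protein coding and 100 as long noncoding RNA, and 32 had no symbol. The largest single set was 155 predicted or clone-named gene models, of 1545 such gene bodies. It was followed by 36 of 84 vomeronasal receptors, 30 of 323 solute carriers, 28 of 129 enzymes of drug and steroid metabolism and 28 of 157 developmental transcription factors. Next came 23 of 140 lectin and killer receptors, 22 of 47 oocyte and early embryo genes, 22 of 207 ion channels and transmitter receptors, 17 of 118 spermatogenesis genes and 16 of 42 keratins. The symbol patterns also catch a few genes of other roles: Pou2af1, a B cell coactivator, among the transcription factors, Nlrp1b, an inflammasome sensor, among the oocyte genes, and Slc13a2os, a noncoding RNA, among the solute carriers. By contrast 7 of 302 olfactory receptors, 4 of 362 Zfp zinc finger genes and 0 of 81 microRNAs were members. Among the 403 members outside the families, recurring stems chosen after the data were seen included 9 cadherins (Cdh), 5 oligoadenylate synthetases (Oas), 4 desmogleins (Dsg) and 4 Toll-like receptors (Tlr).

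The members lay farther from their nearest gene body than the other classes by median, and some lay beside a gene of their own family. The median distance to the nearest gene body was 20505 bases for the members, 6416 for Other and 4071 for Top genes. The nearest gene body was itself Bottom for 154 members (17.4%), against 4.22% of Other and 1.38% of Top genes, and it was Top for 18 members (2.03%). Of the 295 members in named families, 139 had a nearest neighbour of the same family, as did 778 of 2164 such Other genes. The table also lists regulatory regions, and an enhancer row near a start site ("Enh near TSS") overlapped 87 members (9.83%), against 56.6% of Other and 87.6% of Top gene bodies. Enhancer rows far from start sites overlapped 8.14% of members, 15.1% of Other and 7.88% of Top gene bodies over all lengths. Between 30000 and 100000 bases they overlapped 12.8% of members, 27.1% of Other and 28.4% of Top gene bodies. Above 100000 bases the shares were 41.2%, 68.3% and 83.3%. In the length band just below these, members (2.95%) lay above Top (1.07%) and below Other gene bodies (4.64%). Gene bodies of the shorter bands had no such overlap in any class. Of the first set of H3K9me3 domains, a heterochromatin mark, 204 members (23.1%) held a part, against 25.8% of Other and 22.2% of Top gene bodies. From above 10000 to 30000 bases 14.0% of members and 23.9% of Top gene bodies did. From above 30000 to 100000 bases 31.9% and 24.1% did. Of the second set, 15.8% of members, 15.5% of Other and 9.26% of Top gene bodies held a part. Members with a domain of the first set had a median H3K14ac level of 0.390 RPKM and those without 0.386 RPKM. The medians for KAT7 were 0.384 and 0.375 RPKM.

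Most families sat within a narrow band of levels, with the vomeronasal receptors at its upper side. These receptors detect pheromones in the nose, and 34 of the 36 are of the Vmn2r group, with 13 on chromosome 7 and 8 on chromosome 17. Their median was 0.406 RPKM for H3K14ac and 0.400 RPKM for KAT7, with a median ratio of 1.01, and the H3K14ac level of single genes ran from 0.350 to 0.588 RPKM. The 48 vomeronasal receptors of the Other class had a KAT7 median of 0.418 RPKM and a median ratio of 0.985. Vmn2r60, the longest, had 0.387 RPKM of H3K14ac (0.375 to 0.398) and 0.391 RPKM of KAT7 (0.379 to 0.403). The lectin and killer receptors, mostly proteins of the surface of immune cells, had medians of 0.394 and 0.373 RPKM. The longest gene of this set, Skint5 (521613 bases), was caught by the symbol pattern rather than by its role, and had 0.393 and 0.399 RPKM. The cytokine and chemokine set, here mostly receptors, had medians of 0.395 RPKM of H3K14ac and 0.370 RPKM of KAT7. In it Il23r, the interleukin 23 receptor, had 0.408 and 0.394 RPKM.

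Genes of metabolism and transport lay near the members' median. The enzymes of drug and steroid metabolism, mostly cytochromes P450 of liver and adrenal gland, had medians of 0.387 RPKM of H3K14ac and 0.380 RPKM of KAT7. Among them Cyp2c38 had 0.388 and 0.403 RPKM, while Ugt2b35, a glucuronosyltransferase, had 0.342 and 0.429 RPKM, a ratio of 1.26 (1.12 to 1.40). The solute carriers, membrane transporters apart from Slc13a2os, had medians of 0.387 and 0.369 RPKM. Slco6d1, an organic anion transporter, had the highest levels of both antibodies among them by lower bound, 0.430 and 0.417 RPKM. The ion channels and transmitter receptors had medians of 0.385 and 0.378 RPKM, and Grm7, a glutamate receptor gene of 921633 bases, had 0.386 RPKM of H3K14ac (0.383 to 0.390) and 0.379 RPKM of KAT7 (0.376 to 0.383). The oocyte and early embryo genes had medians of 0.395 and 0.384 RPKM. The spermatogenesis genes had medians of 0.391 and 0.381 RPKM, and Spag16, an axoneme protein gene of 898145 bases, had 0.417 and 0.404 RPKM.

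**Figure D3:**
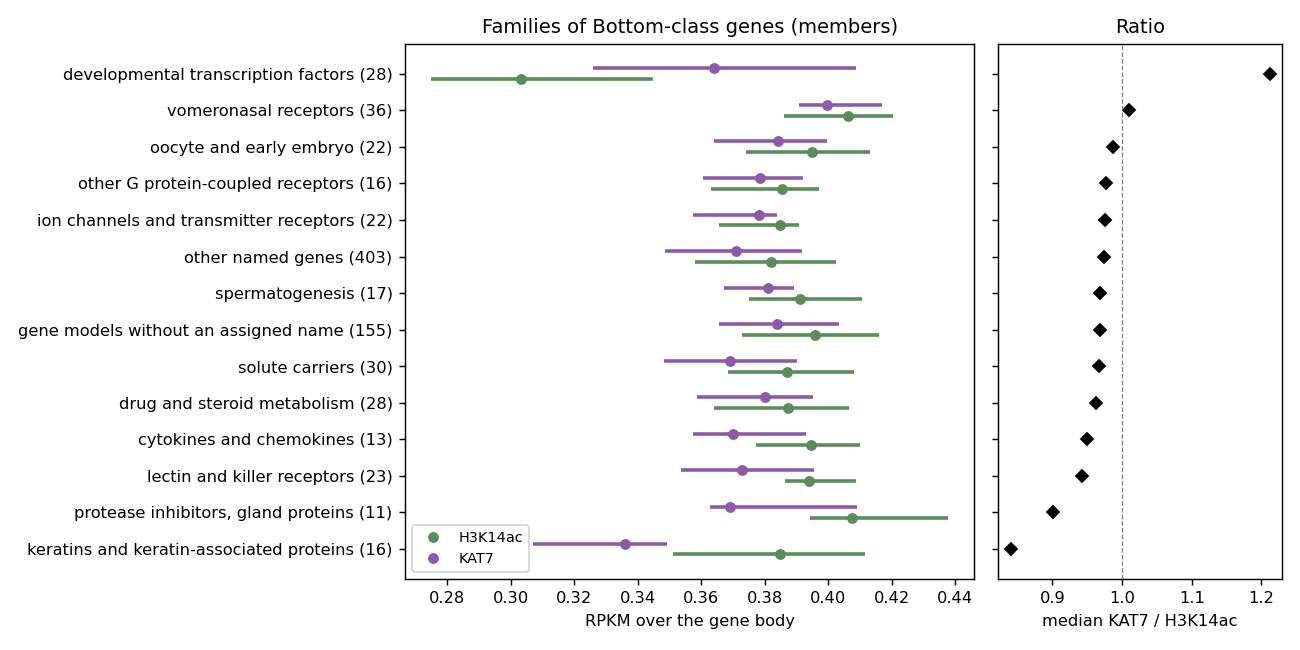
Median RPKM (points) and quartiles (lines) of H3K14ac and KAT7 over the gene bodies of each family with 10 or more members, and the median KAT7 to H3K14ac ratio (diamonds), ordered by that ratio; member numbers are in parentheses and axes do not start at 0. The developmental transcription factors stand apart at 0.303 RPKM of H3K14ac with a ratio of 1.21, and the keratins stand at the low end with a ratio of 0.840.

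The developmental transcription factors differed from this pattern. These genes specify body axes and organs, and they had the lowest median H3K14ac level of the families with 10 or more members, 0.303 RPKM, with a KAT7 median of 0.364 RPKM. Their median ratio was 1.21, and 15 of 28 had a ratio interval above 1 while 1, Foxi2, had one below. Of the 26 members with a ratio interval above the median of all gene bodies, 11 were in this family: Sox17, Lhx9, Lhx1, Hoxb9, Neurod2, Pitx1, Irx4, Hoxd13, Tbx3, Foxc2 and Foxl2. Members outside the family that pattern the embryo were also among the 26, namely Bmp4 (ratio 1.36), Tfap2a (1.37), Osr1 (1.37), Skor1 (1.39), Dbx1 (1.30), Alx1 (1.16) and Uncx (1.28). The same family in the Other class had medians of 0.349 RPKM of H3K14ac and 0.396 RPKM of KAT7 and a median ratio of 1.13. In that class the ratio interval lay above 1 in 40 of 74 factors with a CpG region over the start and in 26 of 55 without. Over all gene bodies it did so in 33.9%. A ratio interval above 1 was thus not particular to the members of this family.

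Foxc2, a forkhead factor of mesenchyme and vessels (chr8:121116171-121118895), had the highest ratio of the named members. It held 0.231 RPKM of H3K14ac (0.185 to 0.284) and 0.463 RPKM of KAT7 (0.395 to 0.538), a ratio of 2.01 (1.54 to 2.62). Foxl2, whose promoter is shown above with 27 CG, held 0.252 RPKM of H3K14ac and 0.459 RPKM of KAT7, a ratio of 1.82 (1.39 to 2.39). Pitx1, a homeodomain factor of the hindlimb, held 0.285 and 0.472 RPKM, a ratio of 1.66 (1.41 to 1.95). Hoxd13, which patterns the digits, held 0.294 and 0.488 RPKM, a ratio of 1.66 (1.33 to 2.07). Neurod2, a neuronal differentiation factor, held 0.290 and 0.453 RPKM, a ratio of 1.56 (1.28 to 1.90). All 5 lay below the lower quartile of the members in H3K14ac and above their upper quartile in KAT7. They were named for the highest lower bounds of this ratio, so these positions follow in part from the choice. At the other end Tbx5, the heart and forelimb factor and the longest gene of the family at 50556 bases, was low for both, with 0.290 RPKM of H3K14ac and 0.313 RPKM of KAT7.

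Many of these factors have short genes, so they were set beside the remaining members of like length. From above 1000 to 3000 bases the 5 factors had a median ratio of 1.33 and the 56 remaining members 0.964. From above 3000 to 10000 bases the 16 factors had a median of 0.306 RPKM of H3K14ac and a ratio of 1.25, and the 226 remaining members 0.382 RPKM and 0.972. From above 10000 to 30000 bases the ratios were 1.02 for 6 factors and 0.965 for 265 members. KAT7 medians were close in these 3 bands, from 0.366 to 0.367 RPKM in the factors and from 0.372 to 0.374 RPKM in the remaining members.

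The keratins lay at the opposite end. Keratins form the filaments of epidermis and hair, and the 16 members had a median of 0.385 RPKM of H3K14ac, as high as that of all members (0.387 RPKM), with a median of 0.336 RPKM of KAT7. Their median ratio was 0.840, 8 of 16 had a ratio interval below 1, and none had one above 1. The 25 keratin genes of the Other class had a median ratio of 0.918. Krt17, a keratin of hair follicles and wounded skin (chr11:100256217-100260989), held 0.411 RPKM of H3K14ac (0.364 to 0.462) and 0.263 RPKM of KAT7 (0.224 to 0.305), a ratio of 0.639 (0.524 to 0.776). Its neighbour Krt42, whose promoter is shown above with 2 CG, held 0.413 and 0.285 RPKM, a ratio of 0.690 (0.589 to 0.807). The other named members at this end were Slc6a19, the amino acid transporter of gut and kidney (ratio 0.773), Bsnd, a chloride channel subunit of kidney and inner ear (0.777), and the noncoding Gm10505 (0.675). The gland proteins and protease inhibitors also had a higher RPKM of H3K14ac than of KAT7, with medians of 0.408 and 0.369 RPKM, and Bpifb9a held 0.462 and 0.385 RPKM.

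**Figure D4:**
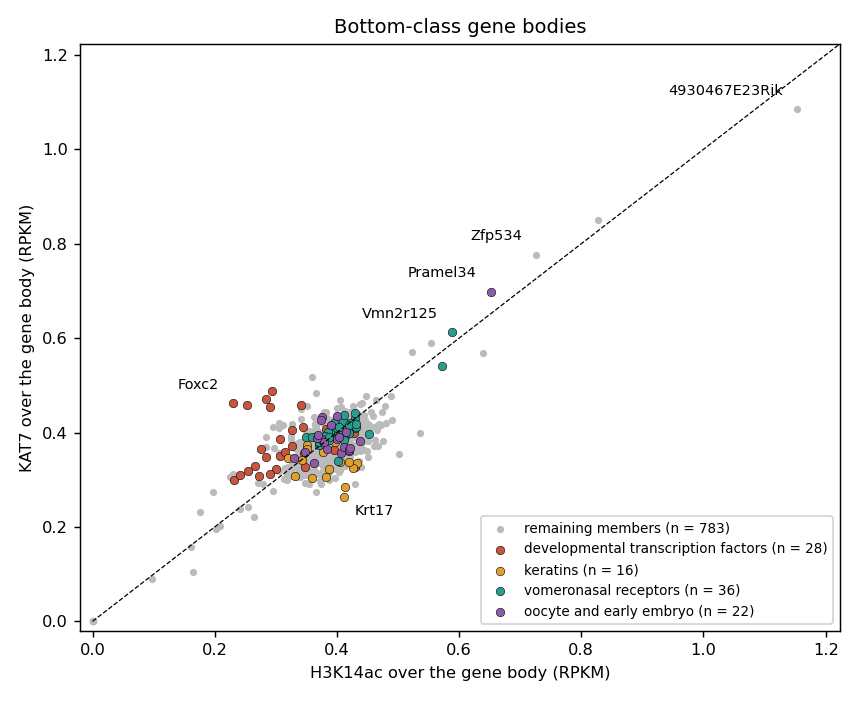
KAT7 against H3K14ac over each of the 885 member gene bodies, in RPKM, with 4 families coloured; the dashed line marks equal RPKM. Foxc2 and other developmental transcription factors lie above the line at low H3K14ac, Krt17 and other keratins lie below it, and 4930467E23Rik lies far from the rest at 1.15 and 1.08 RPKM.

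A CpG region over the start site was uncommon among the members. The table lists CpG rows near start sites ("CpG near TSS"), and such a row covered the start of 104 members (11.8%), against 51.1% of Other and 78.2% of Top gene bodies and 50.2% of all. Within 500 bases of the start the counts were 149 members (16.8%), 59.7% of Other and 86.7% of Top. The rows of 9 members also covered the start of another gene. The developmental transcription factors held 13 of the 104, and 22 of their 28 members had a row within 500 bases. Ion channels and transmitter receptors held 8 and spermatogenesis genes 2. The vomeronasal receptors, olfactory receptors, lectin and killer receptors, cytokines and oocyte genes held 0.

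The CpG rows of the members had lower levels of both antibodies than those of the Other and Top classes, and the gap was wider for H3K14ac. Over the 103 distinct rows the summed level was 0.331 RPKM of H3K14ac (0.320 to 0.343) and 0.416 RPKM of KAT7 (0.404 to 0.429). The 6801 rows of the Other class had 0.459 and 0.485 RPKM, and the 620 rows of the Top class 0.576 (0.570 to 0.582) and 0.557 RPKM (0.551 to 0.563). The members' median ratio at these rows was 1.197, against 1.08 in the Other class and 0.991 in the Top class, the reverse of the order over gene bodies. At rows of 400 bases or less this order did not hold, with medians of 1.06 in the members, 1.11 in the Other class and 1.06 in the Top class. The ratio interval lay above 1 at the rows of 19 of 104 members, where it did so for 14.9% of all genes with a row, and below 1 at 2, where it did so for 8.3%.

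The members' longest CpG rows held the least H3K14ac. At rows of 400 bases or less, the members had 0.478 RPKM of H3K14ac (0.440 to 0.520, 30 rows) and the Top class 0.522 (0.499 to 0.546). At rows above 400 and up to 800 bases the levels were 0.366 RPKM (0.346 to 0.387, 42 rows) and 0.549 RPKM (0.540 to 0.559). At rows above 800 bases they were 0.282 RPKM (0.268 to 0.296, 31 rows) and 0.596 RPKM (0.589 to 0.603). H3K14ac was thus lower at longer rows in the members and higher at longer rows in the Top class, with intervals that do not overlap between the shortest and the longest rows. KAT7 went from 0.493 to 0.439 and 0.388 RPKM in the members and was 0.551, 0.544 and 0.565 RPKM in the Top class. Ratio intervals above 1 occurred in 0 of 31 members with the shortest rows, 8 of 42 and 11 of 31 with the longest, where they occurred in 10.8%, 12.9% and 19.1% of all genes with a row of these lengths. In the Other class the shares were 11.02%, 12.9% and 19.8%, and in the Top class 12.05%, 11.6% and 10.1%. Short rows hold few reads, so a ratio interval there is wide.

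**Figure D5:**
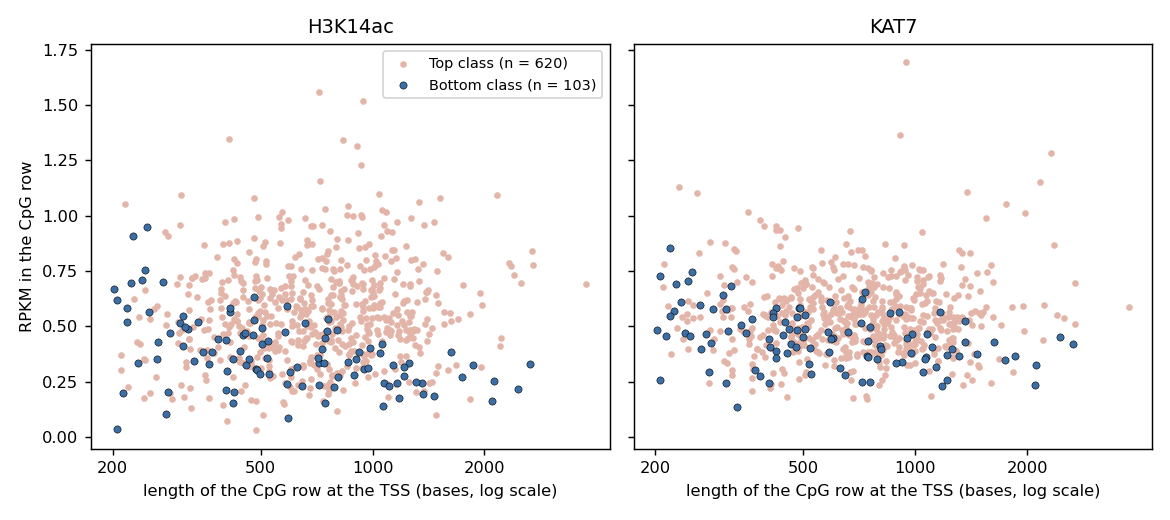
RPKM of H3K14ac and KAT7 in the CpG row over the start site against the length of the row (log scale), for the Bottom class (103 rows) and the Top class (620 rows), 1 point a row. Bottom rows above 800 bases have a summed H3K14ac level of 0.282 RPKM and lie below most Top rows of that length, at 0.596 RPKM; for KAT7 the levels are 0.388 and 0.565 RPKM.

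Named members show what these sums hold. At the rows of the developmental transcription factors the median was 0.272 RPKM of H3K14ac and 0.368 RPKM of KAT7, with a median row length of 948 bases. Uncx, a homeodomain factor of the somites, had 0.242 RPKM of H3K14ac (0.173 to 0.330) and 0.563 RPKM of KAT7 (0.451 to 0.693) over a row of 1167 bases, a ratio of 2.33 (1.58 to 3.47). Aldh1a2, which makes retinoic acid, had 0.192 and 0.526 RPKM (ratio 2.74, 1.86 to 4.12). Kcnj6, an inward rectifier potassium channel, had 0.201 and 0.583 RPKM (ratio 2.91, 1.46 to 6.18). Hoxa11, Hoxd13, Lhx1, Foxl2, Sim2, Skor1 and the germ cell gene Dazl also had intervals above 1, as did the receptors Hrh3 and Oprd1 and the channel Kcnh1. Oprd1, the delta opioid receptor, rested on 7 H3K14ac and 35 KAT7 reads, and was picked out after its values were seen. The row of Cdh1, the epithelial cadherin, held 0.396 RPKM of H3K14ac and 0.653 RPKM of KAT7 (ratio 1.65, 1.10 to 2.50), and that of St8sia6, a sialyltransferase, 0.334 and 0.623 RPKM (1.865, 1.205 to 2.93). The 2 rows with intervals below 1 were those of Htr1f, with 33 H3K14ac and 15 KAT7 reads, and Scube1, a secreted surface protein, with 57 and 25.

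Within the members, a CpG row went with a lower H3K14ac level in the gene body in all but the longest genes. Members with a row had a median of 0.364 RPKM and those without one 0.390 RPKM, a ratio of 0.933, while the summed levels differed by a factor of 0.987 (0.984 to 0.990). The factor was 0.743 (0.676 to 0.816) from above 1000 to 3000 bases, where 5 members had a row. It was 0.897 (0.877 to 0.917) from above 3000 to 10000 bases, 0.930 (0.916 to 0.943) from above 10000 to 30000, 0.963 (0.956 to 0.970) from above 30000 to 100000, and 1.01 (1.01 to 1.01) above. For KAT7 the summed factor was 0.992 (0.989 to 0.996), and it ran from 0.963 to 1.09 over the bands. A lower H3K14ac sum with a row was not particular to the members. The summed factors were 0.979 for H3K14ac and 1.02 for KAT7 in the Other class, and 0.906 and 0.916 in the Top class. By medians the Top factors were 0.956 and 1.00. The Top sums were lowest from above 10000 to 30000 bases, at 0.677 and 0.661, and were 0.967 or more in the other bands. One Top gene body without a row reached 6.81 RPKM of H3K14ac and 9.07 RPKM of KAT7, and its part in the Top sums was not tested. With overlapping gene bodies kept, the members' summed factors changed side, to 1.01 for each antibody. Row and gene body share bases: the row made up a median of 1.04% of the gene body of members with a row, 13.01% in the developmental transcription factors and 73.0% in Foxl2, so the values of short genes at the row and over the body are not separate measurements. Those transcription factors with a row had 0.296 RPKM of H3K14ac (0.286 to 0.307) over the gene body and those without 0.340 RPKM (0.334 to 0.347). Their KAT7 levels were 0.383 RPKM (0.371 to 0.395) and 0.358 RPKM (0.351 to 0.365).

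The table gives 2000-base promoter windows for genes on the plus strand, 466 members among them. The 61 with a CpG row at the start had 0.332 RPKM of H3K14ac (0.324 to 0.341) in this window and the 405 without had 0.397 RPKM (0.393 to 0.400). For KAT7 the levels were 0.374 RPKM (0.365 to 0.384) and 0.396 RPKM (0.392 to 0.399). Top genes with a row had 0.399 RPKM of H3K14ac and 0.435 RPKM of KAT7 there. In the windows after the gene ends the members had 0.407 RPKM of H3K14ac and 0.397 RPKM of KAT7, and the Top class 0.373 and 0.432 RPKM.

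Members that keep either antibody despite the Bottom class were taken as those whose lower bound lay above the median of the Top class, 0.388 RPKM for H3K14ac and 0.436 RPKM for KAT7. Keeping is thus a call on read level, in which background reads were not set apart. For H3K14ac 183 members did so (20.7%), where 18.7% of all gene bodies and 27.3% of Top gene bodies did. For KAT7 10 members did so (1.13%), where 4.58% of all gene bodies and 20.2% of Top gene bodies did. The share for H3K14ac over all lengths is near that of all gene bodies, and that for KAT7 is below it. The H3K14ac count depends on where the threshold lies, since the members' median is close to it: 24 members passed the Top upper quartile, and 425 had a value above the Top median. With gene bodies above 3000 bases only, the Top median was 0.378 RPKM and 278 members passed it, whereas 179 of them passed the threshold of 0.388 RPKM. The KAT7 count was 9 at the upper quartile, and 42 members had a value above the Top median.

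The H3K14ac keepers were spread over 19 sets of genes, with 16 of the 183 having a CpG row at the start. They held 14 of 36 vomeronasal receptors, 40 of 155 gene models, 5 of 11 gland proteins and protease inhibitors, 4 of 13 cytokine genes and 7 of 30 solute carriers. They held 1 of 28 developmental transcription factors (Pou2af1, the B cell coactivator) and 1 of 16 keratins (Krt87). Intervals narrow with gene length. From above 1000 to 3000 bases 4 of 61 members passed (6.56%, against 18.6% of all gene bodies of that length). From above 3000 to 10000 bases 37 of 242 passed (15.3%, against 12.3%), and from above 10000 to 30000 bases 48 of 271 (17.7%, against 10.2%). From above 30000 to 100000 bases 66 of 226 passed (29.2%, against 20.6%), and above that 28 of 85 (32.9%, against 49.8%). The members' share was thus above that of all gene bodies in the 3 middle bands and below it in the shortest and the longest.

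The 10 members that kept KAT7 also kept H3K14ac, and none had a CpG row at its start. Highest in both columns was 4930467E23Rik, a predicted protein-coding gene (chr8:19729576-19753603), with 1.15 RPKM of H3K14ac (1.12 to 1.19) and 1.08 RPKM of KAT7 (1.05 to 1.12). Next in both was a gene without a symbol (chr4:147540218-147543500), with 0.828 and 0.850 RPKM. Zfp534, a zinc finger gene on the same chromosome (chr4:147673502-147702553), had 0.726 RPKM (0.701 to 0.753) and 0.776 RPKM (0.749 to 0.805). Pramel34, of the oocyte PRAME-like family (chr5:93635185-93671463), had 0.653 RPKM (0.631 to 0.675) and 0.699 RPKM (0.675 to 0.723). The remaining 6 had between 0.488 and 0.639 RPKM of H3K14ac and between 0.476 and 0.612 RPKM of KAT7. Among them were the pheromone receptor genes Vmn2r125 (chr4:156344279-156355467), with 0.588 and 0.612 RPKM, and Vmn2r114 (chr17:23290934-23312313), whose promoter with 1 CG is shown above, with 0.571 and 0.542 RPKM. The others were the gene models Gm10220 (0.639 and 0.568 RPKM), Gm2022 (0.523 and 0.570 RPKM) and Gm14496 (0.488 and 0.476 RPKM) and a second gene without a symbol at chr4:146971942-146990755 (0.554 and 0.589 RPKM). All 10 belong to the vomeronasal, olfactory, oocyte and Zfp families, taken as rich in near-identical copies, or to genes without an assigned name. These sets make up 256 of the 885 members. They were listed after the values were seen, and copy identity was not measured. Among the 629 members outside these sets 0 kept KAT7 and 112 kept H3K14ac. Because the list was drawn with the keepers known, the 0 is not a test. How reads that match several copies were placed is not given in the sources used here, so the levels of these 10 are uncertain, and its part in them was not tested.

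At the CpG rows the thresholds were the Top medians of 0.543 RPKM of H3K14ac and 0.539 RPKM of KAT7. Only 2 of 104 members kept H3K14ac there (10.9% of all genes with a row did): Htr1f with 0.946 RPKM (0.652 to 1.33) and Cyp4f39, a fatty acid hydroxylase of skin, with 0.905 RPKM (0.606 to 1.30). A single member, Eps8l2, kept KAT7 (8% of all genes with a row did), with 0.855 RPKM (0.553 to 1.26) over a row of 219 bases holding 25 reads. Over their gene bodies these genes were not high, with 0.392, 0.373 and 0.305 RPKM of H3K14ac. Other rows with high KAT7 were those of Deup1, a centriole amplification gene (0.746 RPKM, 0.483 to 1.10), and Trpc4, a cation channel (0.680 RPKM, 0.455 to 0.977), whose lower bounds did not reach the threshold.

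At the low end, 8 members were listed at 0 reads in both columns. They were Pirt, Fam107a, Mettl7a2, 5730596B20Rik, Gm1988, Gm16387 and 2 genes without a symbol. For Pirt, a regulator of sensory channels with a gene body of 16710 bases, a count of 0 allows up to 0.00156 RPKM of H3K14ac by the exact interval. The table is not uniform on these genes, since the promoter window of Pirt held 108 H3K14ac and 91 KAT7 reads, and a row inside the Mettl7a2 gene body held 435 and 414. The zeros were therefore not read as absence of signal. One further member, Slc13a2os, lay below a mean of 0.1 RPKM, with 0.0973 and 0.0901 RPKM, so that 876 members passed that limit. No member exceeded 5 RPKM in either column.

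The members that mark other cell types lay within the range of the rest. Stmn2, a microtubule regulator of neurons, had 0.395 RPKM of H3K14ac (0.381 to 0.410) and 0.387 RPKM of KAT7 (0.372 to 0.402). Dazl, the germ cell RNA-binding protein and the only one of the 10 with a CpG row at its start, had 0.444 and 0.436 RPKM over the gene body, while its row had 0.229 RPKM of H3K14ac (0.161 to 0.318) and 0.404 RPKM of KAT7 (0.308 to 0.520). Afp had 0.404 and 0.402 RPKM and Myh1 0.395 and 0.376 RPKM. Cldn5, of tight junctions, had 0.424 RPKM of H3K14ac (0.339 to 0.524) and 0.374 RPKM of KAT7. Lower values were those of Mag, a myelin glycoprotein (0.320 and 0.312 RPKM), Krt14 (0.331 and 0.307 RPKM), Tmem119 (0.340 and 0.305 RPKM), Pdgfrb, a growth factor receptor of pericytes (0.353 and 0.333 RPKM), and Cdh5, the endothelial cadherin (0.361 and 0.337 RPKM).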

How the data were processed

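ChIP-seq of H3K14ac and KAT7 was analysed from 1 deposited table of 240814 genomic regions in 12 classes. Per the file headers, the authors deposited read counts and RPKM values for 1 merged column per antibody. The deposited RPKM equals the count over region end minus start and 1 read total per column, in 100% of regions within a relative tolerance of 1e-06. The meaning of "SC" and of "gc" in these names is not given in the sources used here. Per the submitters' processing notes, the build was mm10, and featureCounts, deepTools, Picard, SAMtools and Bowtie2 were used, in versions and roles that are not given.

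Summed levels were summed counts over summed lengths, with exact Poisson 95% intervals. Ratios and folds had exact conditional binomial 95% intervals. Both were checked on simulated counts. PCR reads are not independent molecules, so intervals cover counting error only. A start site was the region start on the plus strand and the end on the minus strand. Named genes were the 8 highest and 4 lowest per antibody by bound, the 5 highest and lowest ratios, the 6 highest CpG rows per antibody, the longest and highest of each family, and cell type markers. Members and lists were chosen with earlier results of these data known. Symbols and promoters came from RefSeq (GRCm38.p6), where 96.7% of gene bodies had a symbol. Python 3.11.15, numpy 2.4.6, pandas 2.3.3 and scipy 1.17.1 were used.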

Additional observations from a re-analysis of the deposited data

How the results depend on the processing

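No paired analysis was possible because each antibody has 1 merged column without replicate numbers, and for the same reason no library could be left out. Over the alternatives run, 9 values stayed within the counting interval, 13 counts stayed within 1.5 times (CpG rows went from 104 to 115 and, within 500 bases, to 149), 21 values or counts moved beyond these limits and 2 reversed. With overlapping gene bodies kept, the members' summed level went from 0.383 to 0.365 RPKM for H3K14ac and from 0.376 to 0.358 RPKM for KAT7, and the Top to Bottom factor from 1.04 to 1.07 and from 1.16 to 1.19. In the same setting the factor between members with and without a CpG row reversed, from 0.987 to 1.01 for H3K14ac and from 0.992 to 1.01 for KAT7; the cause was not tested. With medians in place of sums, the levels were 0.387 and 0.377 RPKM, the Top to Bottom factors 1.00 and 1.16 and the CpG row factors 0.933 and 0.968. Leaving out gene bodies with a mean under 0.1 RPKM or any value above 5 RPKM gave 0.383 and 0.377 RPKM and Top to Bottom factors of 1.02 and 1.14. With gene bodies above 3000 bases, the Top to Bottom factor was 1.03 for H3K14ac. The members keeping H3K14ac went from 183 to 278 with gene bodies above 3000 bases, where the Top median used as threshold also went from 0.388 to 0.378 RPKM, and to 267 with overlapping gene bodies kept and a threshold of 0.381 RPKM. With the threshold held at 0.388 RPKM, an alternative chosen after seeing the data, they were 179 and 187. They went to 24 with the Top upper quartile as threshold, to 425 by value alone and to 112 without the copy-rich and unnamed sets, the last chosen after seeing the data. Those keeping KAT7 went from 10 to 42 by value alone and to 0 without those sets, also chosen after seeing the data. The 404 members with a ratio interval below the median of all gene bodies were 451, 408 and 312 with overlapping genes kept, with genes above 3000 bases and without those sets. Depth limits what single CpG rows show: the 25 KAT7 reads of the Eps8l2 row allow 0.553 to 1.26 RPKM.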
